A study of Mus musculus with 6 samples.

Results

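Organic ion carriers and drug efflux pumps move charged drugs, toxins, urate, conjugated metabolites and hormones across cell membranes. The set comprised every gene on the array whose single annotated symbol begins with Slc22a, Slco, Slc47a or Abcc and a digit, together with Abcb1a, Abcb1b and Abcg2. This gave 50 genes with 91 probe sets, out of 18193 genes on the array, and each gene was represented by its probe set with the highest mean log2 signal. Transcripts were measured in proximal tubule pieces dissected from the kidneys of mice lacking Clcn5 and of wild type mice, with 3 Affymetrix Mouse430_2 arrays per group. The protein missing in the knockout, ClC-5, exchanges chloride for protons in endosomes. Each array carried RNA combined from several mice: the labels state 3 to 4 mice, whereas the records stored with the arrays state 7, and 80 to 100 pieces of 2 mm were taken per kidney. The knockout allele, strain, sex and age of the mice are not given in the sources used here, and neither group was described as treated.

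In the proximal tubule, secretion of an organic anion begins at the basolateral membrane, where the Slc22 carriers Oat1 and Oat3 take it up in exchange for a dicarboxylate. Organic cations enter through Slc22a2 and leave at the brush border through the proton-coupled exchanger Slc47a1. ATP-driven pumps of the Abcc family, P-glycoprotein and Abcg2 complete efflux, whereas apical carriers such as Slc22a12 return urate and other anions to the cell. Slco genes encode organic anion transporting polypeptides, which carry bile salts, steroid conjugates, thyroid hormones and prostaglandins in many tissues.

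Signals are on the linear MAS5 scale, and the arrays had a common trimmed mean of 150 and medians between 40.9 and 48.8. The arrays were washed and stained on fluidics station 1 (knockout 1 and 2, wild type 1 and 3) or station 2 (knockout 3, wild type 2), so both groups were on each. Knockout array 3 had the highest median and was the only array run with solution lot 2. The Clcn5 signals were 352, 322 and 269 in knockout and 1013, 709 and 1029 in wild type, so the targeted transcript was lower on every knockout array (log2 change -1.53, SE 0.14, limma adjusted p = 9.32e-05). The 12 markers of the early proximal tubule (S1 and S2) were all bright enough to be tested, 3 of them fell and none rose, and they summed to 37546 to 42540 in wild type and 36411 to 40039 in knockout. Markers of other cells were present as well and differed between the groups. Beside the marker counts, 6.48% of all 11620 tested genes passed limma's threshold, 3.24% in each direction. All 7 leukocyte markers had a log2 change above 0, with 3 passing the test and sums of 1646 to 1688 in wild type against 2533 to 2581 in knockout. Of the distal convoluted and connecting tubule markers 4 of 6 rose, of the thick ascending limb markers 2 of 6, of the intercalated cell markers 3 of 5 and of the podocyte markers 2 of 4. The distal convoluted and connecting tubule markers summed to 13997 to 16252 in wild type and 16595 to 17446 in knockout. Thick ascending limb markers summed to 10791 to 11470.5 in wild type and 12982 to 14410 in knockout. Principal cell markers went the other way, with 2395 to 2739 in wild type and 1995 to 2146 in knockout. Of the S3 segment markers 2 of 11 rose, of the principal cell markers 2 of 5 fell, and none of 7 endothelial markers and none of 4 tested markers of pericytes, smooth muscle and fibroblasts passed limma's threshold. Those 4 all had a log2 change above 0, and their list summed to 752 to 818 in wild type and 925 to 947 in knockout. Sums of intercalated cell markers (1967 to 2051 against 2531 to 2641) and podocyte markers (856 to 904 against 1070 to 1362) were also higher in knockout. Sums of endothelial and S3 markers overlapped between the groups. The part of these cell types in the results below was not tested. In such bulk RNA, fewer cells of a type and less RNA per cell cannot be told apart. The male genes Eif2s3y, Kdm5d and Uty summed to 383 to 449.6 in knockout and 375 to 469 in wild type, ranges that overlapped. Xist, the marker of female cells, had 89.3, 67.7 and 82.6 in knockout and 52.4, 72.4 and 71.0 in wild type, which also overlapped. None of 5 kidney transcripts known to be higher in male mice passed, nor did the 1 tested that is higher in female mice. These genes bear on carriers whose level differs between the sexes in the mouse kidney.

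Among the carriers and pumps that could be tested, 4 passed: Slco3a1 and Slc22a23 fell, and Abcc4 and Slc22a22 rose. Of the 50 genes, 35 were bright enough to be tested, which required a mean signal of at least 41.9 (the median of all probe sets that are not controls). The 4 changed genes are 11.4% of the tested members, where 6.48% of all 11620 tested genes changed at an adjusted p under 0.05 in limma. By direction, 2 of 35 rose and 2 fell, beside 3.24% of all genes in each direction. The 3 knockout values lay wholly above or below the 3 wild type values in 12 of the 35 genes (34.3%), against 25.2% of all tested genes. An unadjusted p under 0.05 was reached by 9 members, against 19.4% of all tested genes. The log2 changes of the tested members ran from -1.13 to 0.61 with a median of 0.05, beside a median of 0.01 over all tested genes, and 21 of the 35 were above 0. The median size of a member's change, whatever its sign, was 0.15 on the log2 scale, against 0.13 over all genes.

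**Figure D1:**
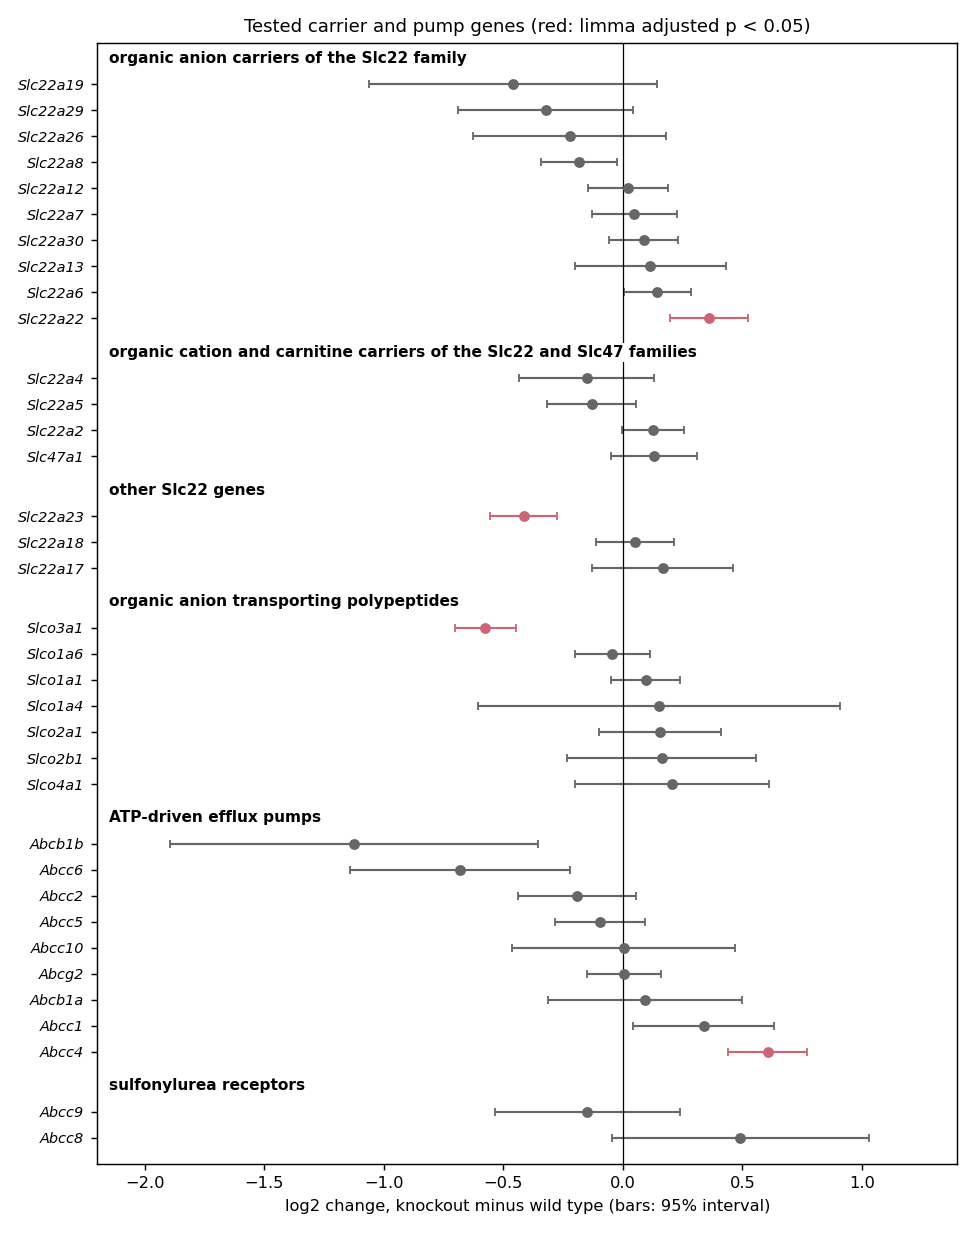
Log2 change (knockout minus wild type, horizontal axis) of the 35 tested carrier and pump genes, grouped by role, with 95% intervals from the limma fit of 3 against 3 arrays. The 4 genes that passed the adjusted threshold are red, and the dim genes such as Abcb1b and Slco1a4 have the widest intervals.

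Slco3a1 encodes OATP-D, a widely expressed polypeptide that carries prostaglandins and thyroid hormone. Its signals were 639, 635 and 617 on the knockout arrays and 943, 922 and 953 on the wild type arrays. The groups lay far apart relative to a spread of 1.04-fold within knockout and 1.03-fold within wild type. The gene fell 1.49-fold (log2 change -0.58, SE 0.06, limma adjusted p = 0.000162). The other probe sets of Slco3a1 measured the same difference: 1434537_at had signals of 631, 651 and 554 in knockout against 921, 853 and 980.3 in wild type, and 1418030_at had 399, 385 and 387 against 638, 611 and 635. Their log2 changes were -0.59 and -0.69, and both passed the test over the 22519 kept probe sets (adjusted p = 0.00219 and 0.000183). The log2 change of Slco3a1 was -0.57 on the arrays of fluidics station 1 and -0.58 on those of station 2.

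Slc22a23 encodes an orphan member of the Slc22 family without an established substrate. Its signals were 635, 628 and 606 in knockout and 879, 805 and 810.1 in wild type, so the highest knockout array stayed well below the lowest wild type array. It fell 1.33-fold (log2 change -0.42, SE 0.06, limma adjusted p = 0.00249). The change was -0.42 on station 1 and -0.41 on station 2. Slc22a23 has 1 probe set.

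Abcc4 encodes the multidrug resistance protein MRP4, an exporter of the brush border that carries cyclic nucleotides, urate, prostaglandins and conjugated drugs. Its signals were 559, 502 and 521 in knockout and 361, 352 and 326 in wild type, with no overlap. It rose 1.52-fold (log2 change 0.61, SE 0.07, limma adjusted p = 0.000622). The difference was 0.63 on station 1 and 0.56 on station 2. This was the one pump that passed, and it too was read by 1 probe set.

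Slc22a22 encodes Oat-PG, an anion carrier of the rodent kidney with a preference for prostaglandins. The signals were 1909, 2159.7 and 1853 in knockout and 1619, 1505 and 1479.9 in wild type. All knockout values were the higher, though knockout array 2 stood above the other arrays of its group. The rise was 1.28-fold (log2 change 0.36, SE 0.07, limma adjusted p = 0.0132). It was the least firm of the 4: without wild type array 2 the adjusted p was 0.0537, without wild type array 3 it was 0.0592, on station 1 alone 0.0544 and without the intensity trend 0.0909. The log2 change was 0.34 to 0.39 in these settings. Without knockout array 3, which stood apart in its median, the log2 changes were -0.56 for Slco3a1, -0.40 for Slc22a23, 0.61 for Abcc4 and 0.41 for Slc22a22, and all 4 passed (adjusted p of 0.000777, 0.00868, 0.00241 and 0.0144).

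**Figure D2:**
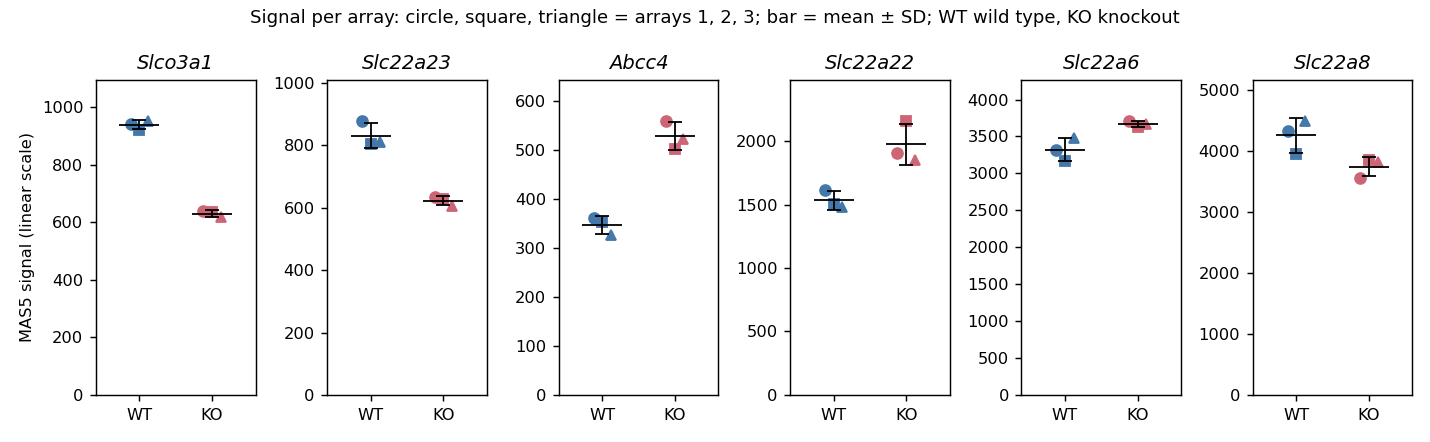
Signal on each array (vertical axis, linear MAS5 scale from 0) for the 4 genes that passed and for the neighbouring genes Slc22a6 and Slc22a8; symbols mark arrays 1, 2 and 3 and bars give the mean and SD of 3 arrays. The groups do not overlap in any of the 6 genes, and they lie closest for Slc22a8, with 3851 as the highest knockout and 3939 as the lowest wild type value.

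Slc22a6 and Slc22a8, the genes of Oat1 and Oat3, lie next to each other on chromosome 19 and serve the same step of anion uptake. Slc22a6 had signals of 3711, 3625 and 3673 in knockout and 3314, 3168 and 3484 in wild type, all knockout values being higher. Its log2 change was 0.14 (SE 0.06, 95% interval 0.00 to 0.29, limma adjusted p = 0.245). Slc22a8 had 3557, 3851 and 3807 in knockout and 4320.3, 3939 and 4488 in wild type, all knockout values being lower. The log2 change of Slc22a8 was -0.18 (SE 0.07, 95% interval -0.34 to -0.02, limma adjusted p = 0.188). Neither gene passed on the probe set that represents it. A second probe set of Slc22a8, 1435418_at, had 287, 269.7 and 232 in knockout and 381, 381 and 361 in wild type. On its own this probe set fell 1.43-fold (log2 change -0.51, SE 0.09, adjusted p = 0.00985). Slc22a8 passed when its probe sets were averaged (log2 change -0.35, adjusted p = 0.00509) and under quantile normalization (log2 change -0.24, adjusted p = 0.00639). A second probe set of Slc22a6, 1438332_at, was at 0.09 (adjusted p = 0.783).

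The sequences before the start sites of this adjacent pair, and of the changed genes that the RefSeq promoter table (build GRCm38.p6) holds, are given here because motifs near the start are known to take part in the control of carrier genes. Each runs 5′ to 3′ over the 250 bases before the start, taken at the outermost start where a gene has several, and capitals mark matches to the motifs named below. Slc22a6 lies at chr19:8617746-8617995 on the plus strand and Slc22a8 at chr19:8592932-8593181 on the plus strand. Abcc4 lies at chr14:118706220-118706469, Slc22a22 at chr15:57477626-57477875 and Slc22a23 at chr13:34345219-34345468, all on the minus strand.
Slc22a6: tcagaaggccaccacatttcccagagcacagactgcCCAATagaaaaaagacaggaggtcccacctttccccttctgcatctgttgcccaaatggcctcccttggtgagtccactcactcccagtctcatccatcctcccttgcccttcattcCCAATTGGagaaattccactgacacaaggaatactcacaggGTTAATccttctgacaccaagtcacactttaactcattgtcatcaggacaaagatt
Slc22a8: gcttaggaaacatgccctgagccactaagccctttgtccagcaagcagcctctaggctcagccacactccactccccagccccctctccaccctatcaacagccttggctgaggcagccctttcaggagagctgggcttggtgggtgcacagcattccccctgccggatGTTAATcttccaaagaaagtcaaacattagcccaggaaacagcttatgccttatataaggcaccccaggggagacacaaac
Abcc4: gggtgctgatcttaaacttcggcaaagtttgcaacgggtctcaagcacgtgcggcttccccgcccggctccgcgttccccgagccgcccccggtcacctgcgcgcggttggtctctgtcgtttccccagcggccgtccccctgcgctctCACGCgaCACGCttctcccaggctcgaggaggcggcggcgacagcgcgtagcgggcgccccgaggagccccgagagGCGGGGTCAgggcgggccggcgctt
Slc22a22: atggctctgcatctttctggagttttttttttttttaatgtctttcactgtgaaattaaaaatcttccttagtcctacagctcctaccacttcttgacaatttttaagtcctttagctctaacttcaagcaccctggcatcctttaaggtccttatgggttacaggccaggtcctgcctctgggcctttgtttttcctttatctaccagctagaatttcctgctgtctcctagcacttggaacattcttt
Slc22a23: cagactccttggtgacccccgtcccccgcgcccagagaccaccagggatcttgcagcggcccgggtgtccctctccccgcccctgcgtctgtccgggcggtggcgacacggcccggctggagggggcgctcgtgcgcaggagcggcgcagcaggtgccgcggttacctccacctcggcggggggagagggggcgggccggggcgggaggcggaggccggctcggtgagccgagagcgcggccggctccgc

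The motifs searched on both strands of these windows were GTTAAT, the core read by hepatocyte nuclear factor 1 (HNF1), CAAAGTCCA, read by HNF4, TGACNNNGC, the antioxidant response element core, GCGTG, the core read by the aryl hydrocarbon receptor, and CCAAT, the box bound by nuclear factor Y. The first of these stands 56 to 51 bases before the start of Slc22a6 and 81 to 76 bases before that of Slc22a8, both on the coding strand. It was found in 4 of the 41 carrier and pump genes with a promoter entry (9.76%), the others being Slc22a29 and Slco1b2, and in 6.54% of all 27025 promoters. In Slc22a6 CCAAT stands at 214 and at 97 bases, the latter overlapping a match on the other strand. Abcc4 holds the antioxidant core at 25 bases and the aryl hydrocarbon receptor core at 101 and 94 bases, all on the other strand. The antioxidant core was found in 7 of the 41 genes (17.1%) against 10.1% of all promoters, the receptor core in 6 (14.6%) against 28.3%, and CCAAT in 12 (29.3%) against 34.5%. CAAAGTCCA was found in none of the 41, and in 0.38% of all promoters. None of these motifs occurs in these letters of Slc22a22 or Slc22a23, which differ in composition: 40.4% of the bases of the former are G or C, with 0 CpG pairs, and 78.4% of the latter, with 32 CpG pairs.

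Among the other organic anion carriers of the Slc22 family none passed. Slc22a12, the apical urate exchanger Urat1, had signals of 5268, 5590.2 and 5779.6 in knockout and 5328, 5199 and 5892 in wild type, which overlapped (log2 change 0.02, 95% interval -0.15 to 0.19). Its other kept probe set was at -0.17, with the opposite sign. Slc22a7, of Oat2, had 405, 360.3 and 403 in knockout and 387, 352 and 393 in wild type (log2 change 0.05, 95% interval -0.13 to 0.23). Slc22a30 had 1992, 2230.02 and 1989 in knockout and 1918, 1969.6 and 1954 in wild type, all knockout values being higher and array 2 standing above the rest (log2 change 0.09, 95% interval -0.06 to 0.23). Slc22a13, a carrier of urate and nicotinate, was dim, at 84.4, 93.5 and 85.3 in knockout against 83.3, 80.6 and 78.9, without overlap (log2 change 0.12, 95% interval -0.20 to 0.43). The remaining dim members Slc22a19, Slc22a26 and Slc22a29 had log2 changes of -0.46, -0.22 and -0.32, with intervals that included 0.

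Slc22a29 and Slc22a30 belong to a row of closely related neighbours on chromosome 19, and their probe sets are less certain. Slc22a29 was represented by an x_at probe set, a suffix for probes that can also bind other transcripts. A further probe set, 1451635_at, is annotated with both genes and therefore represented neither. It had signals of 116, 89.0 and 114 in knockout and 178, 155 and 174 in wild type, and fell (log2 change -0.68, SE 0.14, adjusted p = 0.0179 over the kept probe sets). Which of the transcripts it read cannot be told from the table.

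**Figure D3:**
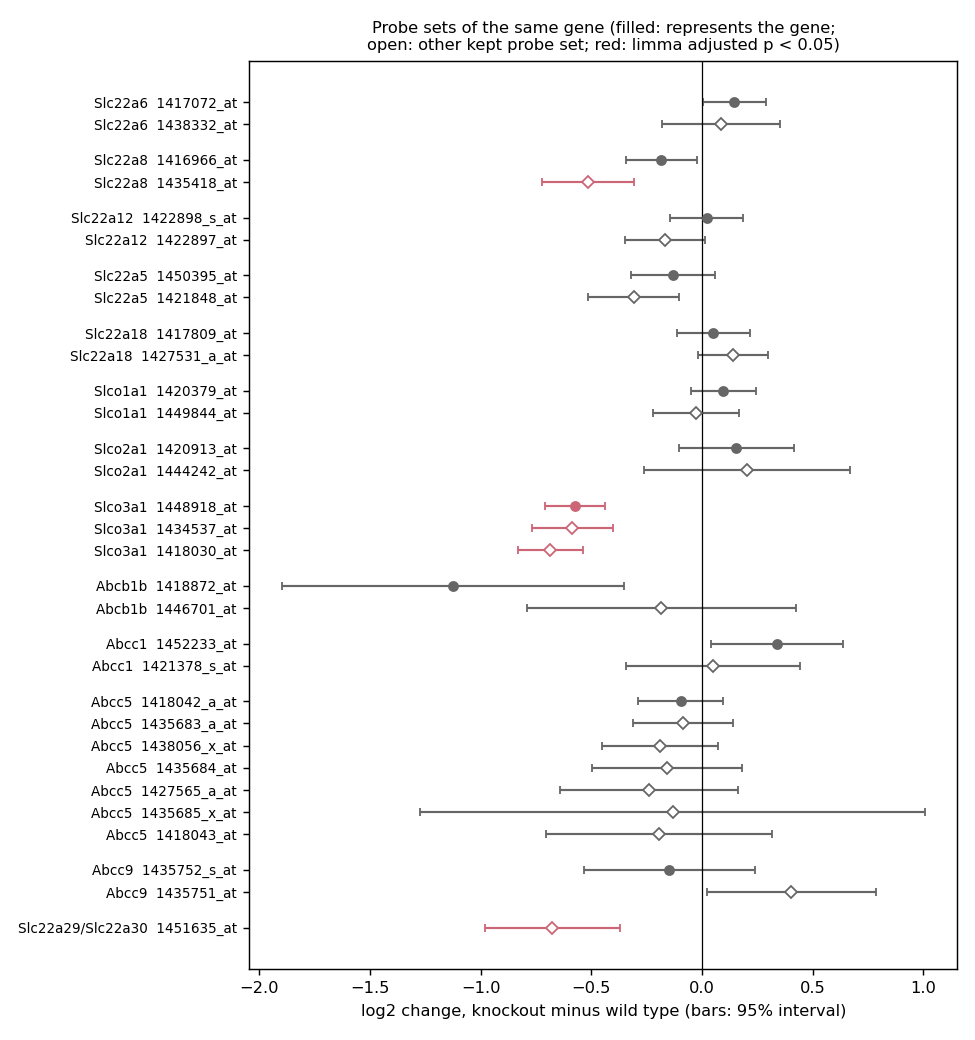
Log2 change (knockout minus wild type) with 95% interval for each kept probe set of the 12 tested members that have more than 1, and for the probe set annotated with both Slc22a29 and Slc22a30. The 3 probe sets of Slco3a1 lie together between -0.69 and -0.58, whereas those of Slc22a8 lie at -0.18 and -0.51 and those of Abcc9 on either side of 0.

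Of the 12 members with several kept probe sets, 9 had all of them on one side of 0. Slc22a12, Slco1a1 and Abcc9 had probe sets with opposite signs. Abcc5, an exporter of cyclic nucleotides, had 7 kept probe sets, all below 0, with log2 changes between -0.24 and -0.08 and none passing limma's threshold.

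The carriers of organic cations and carnitine showed no called change. Slc22a2, of the basolateral cation carrier Oct2, had signals of 2189.7, 2252 and 2163 in knockout and 1987, 1984 and 2086 in wild type. The groups did not overlap, and the difference was small (log2 change 0.13, 95% interval -0.00 to 0.25, limma adjusted p = 0.276). Slc47a1, of the apical exchanger Mate1 that completes cation secretion, had 3915, 4501 and 4517 in knockout against 3977, 3662 and 4168 (log2 change 0.13, 95% interval -0.05 to 0.31). Slc22a5, of the carnitine carrier Octn2, had 2438, 2493 and 2539 in knockout and 2836, 2391 and 2988 in wild type, where array 2 fell inside the knockout range (log2 change -0.13, 95% interval -0.32 to 0.05). A second probe set of Slc22a5 was lower on every knockout array, with 664, 799 and 717 against 1005, 849.8 and 846 (log2 change -0.31, adjusted p = 0.104). Slc22a4, a carrier of ergothioneine, was at 135, 186 and 167 in knockout and 188, 173 and 176 in wild type (log2 change -0.15, 95% interval -0.43 to 0.13).

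Besides Slc22a23, the tested Slc22 genes without a settled carrier role were Slc22a17, which encodes a receptor for lipocalin, and Slc22a18. Slc22a17 had 409, 299 and 274 in knockout and 293, 298 and 271 in wild type, where knockout array 1 alone stood out (log2 change 0.17, 95% interval -0.13 to 0.46). Without that array its log2 change was -0.01. Slc22a18 had 4006, 4085 and 4096 in knockout and 3867, 3629 and 4296 in wild type (log2 change 0.05, 95% interval -0.11 to 0.22).

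Of the organic anion transporting polypeptides other than Slco3a1, none of the 6 tested passed limma's threshold or reached an unadjusted p under 0.05. Slco1a1, an apical carrier that is abundant in the male mouse kidney, had 1645, 1853 and 1787 in knockout and 1699, 1634 and 1605 in wild type (log2 change 0.10, 95% interval -0.05 to 0.24). Slco1a6, a kidney member of the same gene row, had 2314, 2556 and 2191 in knockout against 2407, 2361 and 2497 (log2 change -0.04, 95% interval -0.20 to 0.11). Slco2a1, the prostaglandin transporter, was at 149.97, 150.07 and 145 in knockout and 121, 148 and 133 in wild type (log2 change 0.16, 95% interval -0.10 to 0.41). Slco1a4, Slco2b1 and Slco4a1 were dim, with log2 changes of 0.15, 0.16 and 0.21. Between the change of Slco3a1 and that of the next lowest polypeptide, Slco1a6, lay a gap from -0.58 to -0.04 on the log2 scale.

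Of the 9 tested efflux pumps, Abcc4 alone passed, and 3 others reached an unadjusted p under 0.05 without passing. Abcb1b, a rodent P-glycoprotein, was dim at 35.6, 59.7 and 20.0 in knockout and 66.5, 87.8 and 75.5 in wild type. Each knockout value was below each wild type value, but the knockout arrays spread over 2.98-fold (log2 change -1.13, SE 0.35, limma adjusted p = 0.0938). The log2 change of Abcb1b was -0.62 on station 1 and -2.13 on station 2, and the call turned on single arrays: without knockout array 2 it passed (log2 change -1.51, adjusted p = 0.0194), and without knockout array 3 the log2 change was -0.72 (adjusted p = 0.158). Its other kept probe set was at -0.18 (adjusted p = 0.797). Abcc6, of an ATP-releasing transporter whose loss causes ectopic mineralization, had 60.5, 39.9 and 59.7 in knockout and 81.4, 78.7 and 92.6 in wild type, without overlap (log2 change -0.68, SE 0.21, limma adjusted p = 0.0898). Its adjusted p was above 0.05 in each of the 16 alternative settings. Abcc1, the basolateral exporter MRP1, had 125, 140.2 and 154 in knockout and 101, 108 and 123 in wild type (log2 change 0.34, SE 0.13, limma adjusted p = 0.188), and its other kept probe set was at 0.05.

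The remaining pumps did not pass either. Abcg2, an exporter of urate and sulfated conjugates, had 3628, 4003 and 3900.5 in knockout and 3887, 3616 and 3996 in wild type (log2 change 0.00, 95% interval -0.15 to 0.16). Abcc2, the exporter MRP2 of glucuronide and glutathione conjugates, had 907, 949 and 713 in knockout and 964, 1085 and 875 in wild type, the lowest being knockout array 3 (log2 change -0.19, 95% interval -0.44 to 0.06). On station 1 the log2 change of Abcc2 was 0.01, and it was -0.60 on station 2. Abcc5 had 219, 223 and 227 in knockout and 226, 252 and 239 in wild type (log2 change -0.10, 95% interval -0.29 to 0.09). Abcb1a and Abcc10, both dim, were at 0.09 and 0.00. The sulfonylurea receptor genes Abcc8 and Abcc9, subunits of potassium channels that share the Abcc fold, had log2 changes of 0.49 and -0.15 (limma adjusted p = 0.305 and 0.718). A second probe set of Abcc9 had the opposite sign, at 0.40 (adjusted p = 0.257).

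**Figure D4:**
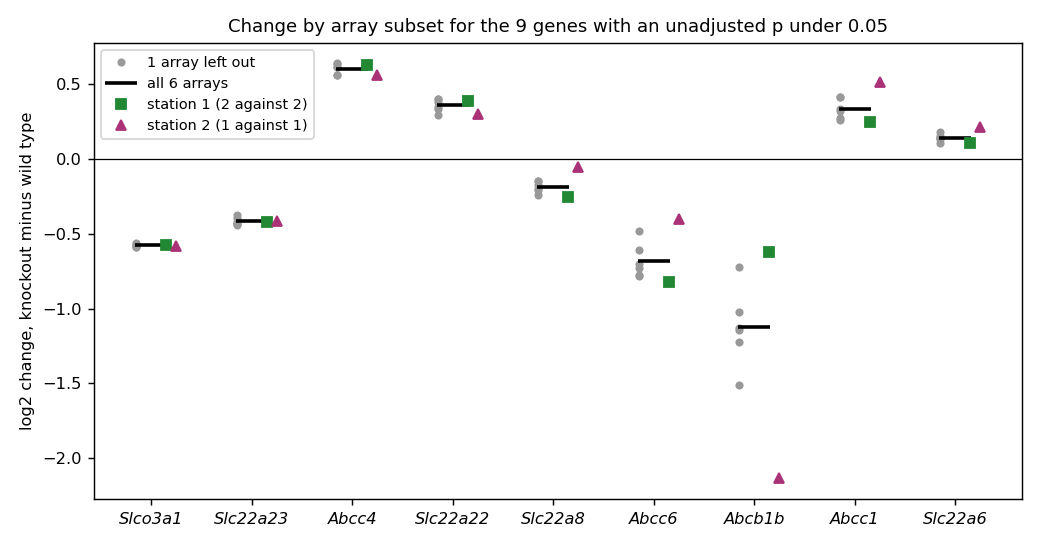
Log2 change (knockout minus wild type, vertical axis) of the 9 members with an unadjusted p under 0.05, with all 6 arrays, with each array left out in turn, and within each fluidics station. The values of Slco3a1, Slc22a23 and Abcc4 stay close together in every subset, whereas those of Abcb1b run from -2.13 to -0.62.

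How small a change could be seen depended on the brightness of the probe set. The 12 tested members with a mean signal over 1000 had a median SE of 0.07 on the log2 scale, the 10 between 100 and 1000 had 0.10 and the 13 under 100 had 0.18. Of these classes 1, 3 and 0 members passed. The uncalled bright carriers, such as Slc22a12, Slc22a18 and Abcg2, therefore had narrow intervals, whereas for dim genes such as Abcb1b a change of 2.18-fold did not pass.

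The other 15 members were too dim to be tested, with geometric mean signals of 3.16 to 34.0. They were Slc22a14, Slc22a15, Slc22a16, Slc22a21, Slc22a27, Slco1a5, Slco1b2, Slco1c1, Slco4c1, Slco5a1, Slco6b1, Slco6c1, Slco6d1, Abcc3 and Abcc12. The brightest of them, Slc22a15 at 34.0, lay below the dimmest tested members, Slc22a19 at 51.1 and Abcb1b at 51.5. In Slc22a15 the knockout signals of 39.1, 50.3 and 42.8 were all above the wild type signals of 19.2, 25.8 and 37.5, and in Slco6b1 the knockout signals of 11.2, 1.11 and 17.7 were all below 24.3, 23.6 and 32.0. When the filter was removed none of the 15 passed limma's threshold, and the smallest adjusted p was 0.309.

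Several carriers lie beside each other in the genome, and the log2 changes of adjacent tested genes did not all have the same sign. Of 13 pairs of members that are neighbours among the protein-coding genes of the RefSeq table, 6 had both genes tested. In 2 pairs the signs were alike, Slc22a19 with Slc22a26 and Slco1a4 with Slco1a1, and in 4 they were opposite. No gene of these 6 pairs passed limma's threshold, and most had intervals that included 0, so that the signs are uncertain. Along chromosome 19 the log2 changes were -0.32 for Slc22a29, 0.09 for Slc22a30, -0.18 for Slc22a8 and 0.14 for Slc22a6. Abcb1a and Abcb1b, adjacent on chromosome 5, were at 0.09 and -1.13.

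The genes known to serve these carriers were read from 4 lists. Beside the counts below, 6.48% of all 11620 tested genes passed limma's threshold, 3.24% in each direction. Of 15 tested nuclear receptors and transcription factors known to control carrier genes, 2 rose and 1 fell, with a median log2 change of 0.08. Ppard, of the lipid-sensing receptor PPARδ, rose (log2 change 2.04, SE 0.18, limma adjusted p = 6.34e-05), as did Cebpb, of an inflammatory and metabolic transcription factor (log2 change 0.61, SE 0.09, limma adjusted p = 0.00242). Bcl6, a repressor that takes part in sex-dependent gene expression of the liver, had signals of 172, 209.6 and 138 in knockout and 293, 272 and 286 in wild type, and fell 1.66-fold (log2 change -0.73, limma adjusted p = 0.00824). Ppara, of the fatty acid receptor, had 686, 778 and 479 in knockout and 939, 863 and 957 in wild type and did not pass (log2 change -0.53, limma adjusted p = 0.0573), nor did Esr1 at -0.48 (0.0989). The factors whose motifs were searched did not pass either: log2 changes were 0.19 for Hnf4a (adjusted p = 0.194), 0.03 for Nfe2l2 (0.872) and 0.10 for Ahr (0.806).

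Of 12 tested scaffolds, partner transporters and ion-gradient genes, none rose and 1 fell, with a median log2 change of 0.02. The gene that fell was Slc13a2, of an apical dicarboxylate cotransporter, with signals of 508, 461 and 470.2 in knockout and 621, 580 and 629 in wild type (log2 change -0.35, SE 0.07, limma adjusted p = 0.0122). Slc13a3, the basolateral cotransporter that supplies the dicarboxylate for Oat1 and Oat3, was at -0.00 (95% interval -0.15 to 0.14). Ezr, of the membrane linker ezrin, and Pdzk1, of the scaffold that holds apical carriers in place, did not pass, at -0.16 and 0.12 (limma adjusted p = 0.217 and 0.413).

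Of 10 tested further genes of urate and nucleoside handling 1 rose, Slc29a3, of a lysosomal nucleoside carrier (log2 change 0.29, SE 0.07, limma adjusted p = 0.0353), and none fell, with a median of 0.08. Slc16a9, a carnitine and urate-associated carrier, and Slc29a4, a basic amine carrier, had the next smallest p, at 0.17 and -0.17 (adjusted p = 0.133 and 0.296). Of 19 tested conjugating and glutathione enzymes, which make substrates for the pumps, 3 rose and 3 fell, with a median of 0.08. The largest changes were in the glucuronosyltransferase genes Ugt2b37 (2102, 2372 and 2098 in knockout against 794, 861 and 855) and Ugt2b34 (156, 146 and 114 against 344, 350.4 and 353). Ugt2b37 rose 2.62-fold and Ugt2b34 fell 2.54-fold (limma adjusted p = 1.23e-06 and 6.61e-05). These genes belong to a family of close paralogs, so that their probe sets may also bind related transcripts. Nat2, an acetyltransferase, rose 1.32-fold and Sult1c2, a sulfotransferase, 1.27-fold (adjusted p = 0.00906 and 0.0495). Mgst1, a microsomal glutathione transferase, fell 1.62-fold and Gclc, which makes the glutathione precursor, 1.35-fold (limma adjusted p = 0.000162 and 0.0052). Sult1d1 and Ugt3a1, at -0.23 and 0.20, did not pass (0.211 and 0.272).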

How the data were processed

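Trizol-extracted RNA went through 1 round of oligo dT-primed amplification, per the labels' protocols. The authors deposited linear signal intensities, and the submitters' processing notes name GCOS 1.4 and MAS5. These values carry no detection calls, so background could not be set apart, and signals of different probe sets are not comparable as levels. Of 45101 probe sets, 64 controls were left out, and genes were named from the 34945 with 1 symbol. All 50 member symbols matched the RefSeq table. Replicate numbers did not pair the arrays.

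Signals were turned to log2. Probe sets with a mean under the median were left out, and the brightest represented each gene. The groups were set against each other in limma 3.58.1 under R 4.3.3 (lmFit, then eBayes with a trend on intensity; two-sided; 4 degrees of freedom left). Benjamini-Hochberg adjustment ran over 11620 genes, and the threshold was 0.05. Log2 changes, SEs, 95% intervals and folds come from this fit. In the records, arrays of a group count as biological replicates. The p-values thus measure the spread between RNA pools, and with 3 arrays a group their precision is limited. Only the limma step was run on simulated data, with known changes and with noise drawn from its own fitted variances. The filter and the choice of probe set were not part of that run. Tables were made with Python 3.11.15 and pandas 2.3.3.

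The members and gene lists were chosen with earlier results of these data known. The text names Clcn5, members past the threshold or with an unadjusted p under 0.05, up to 4 of the brightest members of each role, and of each list the genes that passed and up to 2 with the next smallest p. Members and list genes outside this rule (Slc22a7, Slc22a13, Slc22a19, Slc22a26, Slc22a29, Slco1a4, Slco2b1, Slco4a1, Abcb1a, Abcc10, Hnf4a, Nfe2l2, Ahr and Slc13a3) and the untested members were named after their values were seen, as was the probe set shared by Slc22a29 and Slc22a30. Alternatives changed the transform, the normalization, the filter, which probe set stood for a gene, array weights, the variance trend, blocks and the arrays used.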

Additional observations from a re-analysis of the deposited data

How the results depend on the processing

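Slco3a1, Slc22a23 and Abcc4 kept their direction and passed in all 16 alternative settings, and Slc22a22 kept its direction in all and passed in 12. The number of genes called was 753 as reported, 487 without an intensity trend and 458 on station 1 alone. The number of members called higher was 2 as reported, 1 in each of these settings, and 1 to 2 when an array was left out, which gave 503 to 733 genes in all and 2 to 3 members lower. The third was Abcb1b without knockout array 2. With a replicate block 765 genes, 2 members higher and 2 lower were called. Replicate numbers showed no pairing. This was read from each array's deviations from its group mean over the tested genes, not from the signals themselves. The deviations of same-numbered arrays had correlations of 0.02, 0.03 and -0.03, and not every array's deviations correlated best with those of its own number. Of the 35 tested members 25 kept 1 sign in every setting. The others included Slc22a12, Slc22a18 and Abcg2, whose log2 changes lay near 0. They also included Slc22a17, Abcc2, Slco1a4 and Abcc9, with log2 changes of 0.17, -0.19, 0.15 and -0.15 as reported. Of the settings of single named members, 4 ended a call (all of Slc22a22), 4 made one (3 of Slc22a8 and 1 of Abcb1b) and 389 of 416 left direction and call as they were. The single probe sets were added after the data were seen. The cause of these differences was not tested. Dim probe sets limit what could be seen.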
